A study of Mus musculus with 21 samples.

Results

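The 9 genes described here are the clock-controlled transcription regulators Nr1d1, Nr1d2, Dbp, Tef, Hlf, Nfil3, Bhlhe40, Bhlhe41 and Ciart, chosen by name and matched by symbol to 9 of the 55536 gene identifiers in the files. Their expression was compared by RNA-seq in pancreatic islets of male CBA mice that were fed a regular diet (RD), a high-fat diet (HFD) or an HFD containing O304 (HFD-O304), with 7 samples in each of the 3 groups. O304 is a pan-AMPK activator, a compound that switches on every form of the energy-sensing kinase AMPK, given as 0.8 mg in each g of the HFD. Each sample was RNA of 150 islets from a pool of 5 mice. The mice were 10 weeks old when the diets began; the diets lasted 9 weeks by the methods and 10 weeks by the results text, which gives an age of 20 weeks. All groups were kept on 12 h of light per day and ate freely, and the hour at which islets were isolated is not given in the sources used here. The HFD-O304 diet differed from the HFD by O304 alone, and from the RD by both diet and drug, and the amount eaten also differed between groups by the study's text. HFD-O304 replicate 1 is placed by its title, since its diet tag reads HFD.

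The circadian clock is a loop in which CLOCK (or NPAS2) and BMAL1, encoded by Arntl, switch on their own repressors, the PER and CRY proteins, through E-box motifs. These 9 genes belong to a second layer, which the same activators drive directly or, as for Nfil3, through other members of it. REV-ERBα and REV-ERBβ (Nr1d1 and Nr1d2) are heme-binding nuclear receptors that recruit the NCoR and HDAC3 corepressor and silence Arntl, Npas2 and Nfil3. DBP, TEF and HLF are the PAR bZIP factors, which activate genes through D-box motifs, and NFIL3 (also called E4BP4) represses through the same motif. BHLHE40 and BHLHE41 (DEC1 and DEC2) are repressors that occupy E-boxes, and CIART (CHRONO) represses CLOCK and BMAL1 directly. In pancreatic β-cells this clock is needed for normal glucose-stimulated insulin release.

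E-boxes, D-boxes and REV-ERB sites are the motifs through which these regulators act, and the promoters of the 9 genes are shown for the matches they hold. RefSeq windows (GRCm38.p6) from 250 bases before to 50 after the start were found for 8 of the 9 genes, with a pair of windows for Tef. Bhlhe40 had none. Each motif was searched on both strands and its share is that of all 32544 windows. The E-box CACGTG was present in Tef, Bhlhe41 and Ciart and in 7.17% of all windows. The E-prime box CACGTT was present in Nr1d1 and in 4.71% of windows. Nfil3 held the REV-ERB motif TAGGTCA on the reverse strand, a motif in 2.61% of windows, and Hlf held a cAMP response element TGACGTCA, in 1.8%. No window of the 9 genes held the D-box TTATGTAA or its form TTACGTAA, and that of Nr1d2 and of Dbp held none of the 7 motifs. Per3, a repressor of the PER family that is described beside these genes below, had 2 D-boxes, a motif in 0.931% of windows. Arntl, likewise described below, held TAGGTCA in 1 window, beginning 30 bases after the start, and Npas2 held none of the motifs. A match describes the letters in a window and does not show a bound site. Stretches around motifs that lie upstream of a start, with the motif in capitals, read on the strand of the gene as follows.
Nr1d1 (chr11:98775380-98775425, minus strand): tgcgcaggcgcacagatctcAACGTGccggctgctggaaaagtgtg
Tef, upstream window (chr15:81802536-81802561, plus strand): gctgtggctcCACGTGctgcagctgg
Tef, internal window (chr15:81811256-81811301, plus strand): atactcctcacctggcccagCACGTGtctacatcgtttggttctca
Hlf (chr11:90390918-90390946, minus strand): tcggcgcgcggtgcgggcccTGACGTCAc
Nfil3 (chr13:52981040-52981061, minus strand): cgctcggaacTGACCTActaac
Bhlhe41 (chr6:145865558-145865583, minus strand): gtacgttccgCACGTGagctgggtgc
Ciart, farther E-box (chr3:95882319-95882364, minus strand): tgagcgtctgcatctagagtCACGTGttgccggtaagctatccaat
Ciart, nearer E-boxes (chr3:95882261-95882306, minus strand): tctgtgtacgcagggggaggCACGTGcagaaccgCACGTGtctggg
Per3, farther D-box (chr4:151044843-151044890, minus strand): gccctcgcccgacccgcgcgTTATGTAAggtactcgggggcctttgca
In the annotation that goes with the counts, the upstream Tef stretch lies in the first exon of Tef and overlaps Gm17597 on the other strand, the Nfil3 stretch lies in its first exon and the last base of the Bhlhe41 stretch is the first base of that gene. The internal Tef stretch is intronic, and both Ciart stretches lie within C920021L13Rik, which is read from the other strand. The Per3 stretch lies within an intron of Camta1. The stretches of Nr1d1 and Hlf lie just upstream of their annotated starts. The nearer Ciart E-boxes begin 58 and 44 bases before the start, and those of Tef 127 and 138 before theirs.

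Read pairs on genes ranged from 13809266 to 48922569 per sample, with HFD-O304 replicate 2 the shallowest, and all 9 genes passed the filter of at least 10 reads over the 21 samples, which left 27229 genes. Replicates of a group differed by a chi-square per gene of 7.35 to 90.1, so none was taken as a repeat of another. The labels give each sample as a replicate of its group without naming its mice, so p-values measure the spread between these samples, which may be technical. The islet hormone genes Ins1, Ins2, Iapp, Gcg, Sst and Ppy summed to between 287732 and 388247 CPM (counts scaled to library size), and the beta cell list to between 3830 and 6200 CPM, so the markers of the labelled tissue were present in every sample. Acinar genes, which mark the exocrine pancreas, ranged from 11.5 to 7315 CPM. Replicates 1 to 4 and 5 to 7 carry different runs of library numbers, and what those runs stand for is not given in the sources used here. In replicates 1 to 4 the numbers go group by group, RD first and HFD-O304 last, so group and library order cannot be told apart there. In replicates 5 to 7 the numbers take the groups in turn.

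HFD alone did not move these genes past the threshold. Of the 9 genes, 0 passed edgeR's quasi-likelihood test at an adjusted p under 0.01 in HFD vs RD islets, against 3.54% of all genes tested. At an unadjusted p under 0.05, 2 passed (Nfil3 and Bhlhe41), where 21% of all genes did, and DESeq2 also called 0. All 9 fitted lower in HFD islets, with a median log2 fold change of -0.19 beside -0.0044 over all genes. None of the 9 separated the groups without overlap, which 1.35% of all genes did. The intervals leave room for moderate change, since the 95% confidence interval of Dbp ran from -0.52 to 0.25 and that of Ciart from -0.93 to 0.07 on the log2 scale.

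HFD-O304 islets stood apart from both other groups. Against RD, 7 of the 9 genes rose (0.404% of all genes were called higher) and 1, Nfil3, fell (0.903% were called lower). Against HFD, the same number rose (5.08% of all genes) and Nfil3 again fell (6.79%). The values of 8 genes did not overlap between HFD-O304 and RD samples, which held for 1.56% of all genes, and those of all 9 did not overlap between HFD-O304 and HFD samples, which held for 6.17%. The median log2 fold change of the 9 was 1.06 against RD and 1.27 against HFD, where the medians over all genes were 0.0078 and 0.027. Both comparisons use the same HFD-O304 samples and are given side by side. Without HFD-O304 replicate 1, the sample with the other diet tag, 8 of the 9 genes passed in each.

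**Figure D1:**
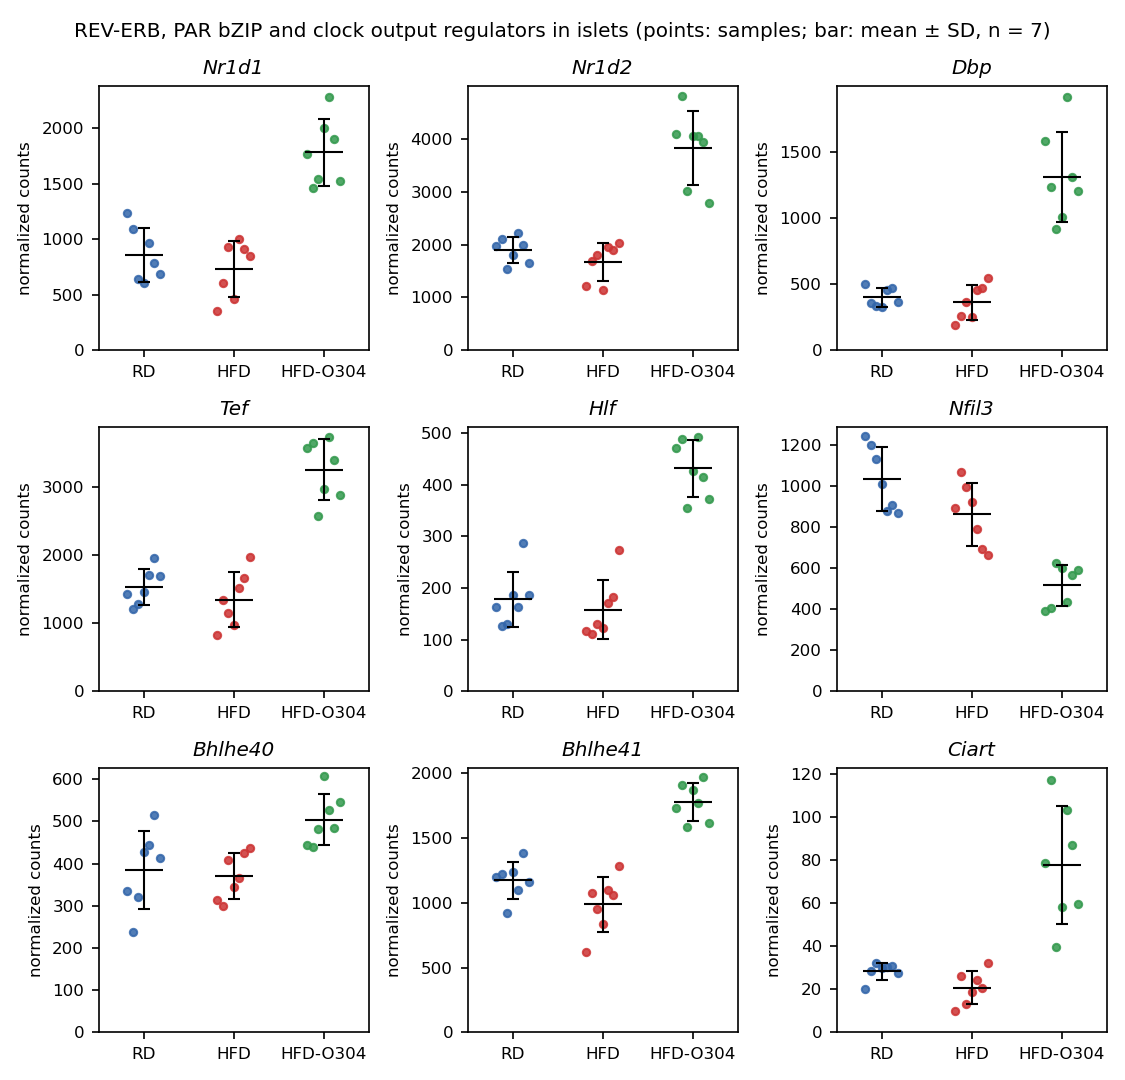
Normalized counts of each gene (vertical axes from 0) in RD, HFD and HFD-O304 islets. Each point is a sample, replicates 1 to 7 from left to right, and bars give the mean ± SD of 7; all HFD-O304 points lie above the RD and HFD points in every panel but those of Nfil3, where they lie below, and Bhlhe40, where they overlap RD.

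Of the REV-ERB genes, Nr1d1 had normalized counts of 604 (lowest), 786 (median) and 1235 (highest) in RD islets, 351, 851 and 1001 in HFD islets, and 1460, 1772 and 2284 in HFD-O304 islets. Every HFD-O304 sample thus lay above every other sample, while RD and HFD samples overlapped widely. By edgeR it rose by 1.06 on the log2 scale against RD (standard error 0.19; adjusted p = 0.00122) and by 1.29 against HFD (standard error 0.19; adjusted p = 1.44e-05).

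Its paralog Nr1d2 had 1540, 1973 and 2219 normalized counts in RD, 1140, 1802 and 2026 in HFD, and 2786, 4046 and 4812 in HFD-O304 islets. The groups separated in the same way, and the fold was close to that of Nr1d1. Log2 fold changes were 1.01 (standard error 0.13, adjusted p = 1.29e-05) against RD and 1.19 (standard error 0.13, adjusted p = 1.34e-07) against HFD. Nr1d1 overlaps Thra, which is read from the other strand, and the counts used here are those of the gene's own strand.

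Among the PAR bZIP genes, Dbp had the largest fitted change of the 9 against RD. Its normalized counts were 329, 368 and 501 in RD, 194, 370 and 551 in HFD and 920, 1236 and 1913 in HFD-O304 islets. No HFD-O304 sample came near the other groups. Dbp rose by 1.70 on the log2 scale (standard error 0.19, adjusted p = 1.68e-06), a fold of 3.26, against RD and by 1.84 (standard error 0.19, adjusted p = 6.36e-08), a fold of 3.58, against HFD. Dbp shares its locus with Sphk2 on the other strand: counts without strand kept only 52.5% of its reads, and gave log2 fold changes of 1.73 and 1.92 for these comparisons.

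Tef had 1204, 1456 and 1954 normalized counts in RD, 824, 1335 and 1974 in HFD and 2571, 3394 and 3736 in HFD-O304 islets. Hlf, the least abundant PAR bZIP gene per length, had 127, 163 and 288 in RD, 110.97, 131 and 273 in HFD and 356, 426 and 492 in HFD-O304 islets. For both genes the HFD-O304 samples lay above all others, and for Hlf RD replicate 6 and HFD replicate 7 reached well above the rest of their groups. Tef rose by 1.08 on the log2 scale (standard error 0.14, adjusted p = 2.72e-05) against RD and by 1.27 (standard error 0.14, adjusted p = 3.99e-07) against HFD. Hlf rose by 1.28 (standard error 0.18, adjusted p = 4.35e-05) against RD, and its 1.44 against HFD had an adjusted p of 1.20e-06 (standard error 0.18).

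Nfil3, the repressor at the D-box, moved the other way. RD islets had 872, 1011 and 1246 normalized counts, HFD islets 666, 895 and 1071, and HFD-O304 islets 394, 565 and 624. All HFD-O304 samples were below all RD and HFD samples, although the highest of them came close to the lowest HFD sample. Nfil3 fell by 0.99 on the log2 scale (standard error 0.12, adjusted p = 9.61e-06) against RD and by 0.73 (standard error 0.12, adjusted p = 7.27e-05) against HFD.

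Of the E-box repressors, Bhlhe41 had 920, 1202 and 1384 normalized counts in RD, 619, 1057 and 1287 in HFD and 1581, 1770 and 1972 in HFD-O304 islets. Its HFD-O304 samples cleared the others by a narrow margin and were the most uniform of any group and gene here, with a coefficient of variation of 8.32%. It rose by 0.60 (standard error 0.11, adjusted p = 0.00141) against RD and 0.85 (standard error 0.11, adjusted p = 2.21e-06) against HFD.

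Bhlhe40 was the exception among the 9. It had 238, 414 and 514 normalized counts in RD, 300, 365 and 437 in HFD and 439, 484 and 608 in HFD-O304 islets, and only 3 of the 7 HFD-O304 samples were above every RD sample. HFD-O304 and HFD samples did not overlap, by a narrow margin. The log2 fold change of 0.39 against RD (standard error 0.12, adjusted p = 0.0925) and that of 0.45 against HFD (standard error 0.12, adjusted p = 0.0106) missed the threshold, the latter narrowly. In HFD-O304 vs HFD islets it passed in 16 of 38 alternative settings, DESeq2 among them (adjusted p = 0.00385), and its adjusted p ranged from 8.74e-04 to 0.561 over these settings.

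Ciart, the direct repressor of CLOCK and BMAL1, was the scarcest of the 9. It had 20.3, 29.9 and 32.3 normalized counts in RD, 9.92, 20.7 and 32.2 in HFD and 39.6, 78.7 and 117.6 in HFD-O304 islets. HFD-O304 samples were above the rest and spread over a 2.97-fold range. Ciart rose by 1.41 (standard error 0.22, adjusted p = 2.83e-04) against RD and by 1.84 (standard error 0.23, adjusted p = 1.40e-06) against HFD, and its fold of 3.59 against HFD was level with that of Dbp. The counts behind it were small, between 7 and 125 read pairs in a sample.

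**Figure D2:**
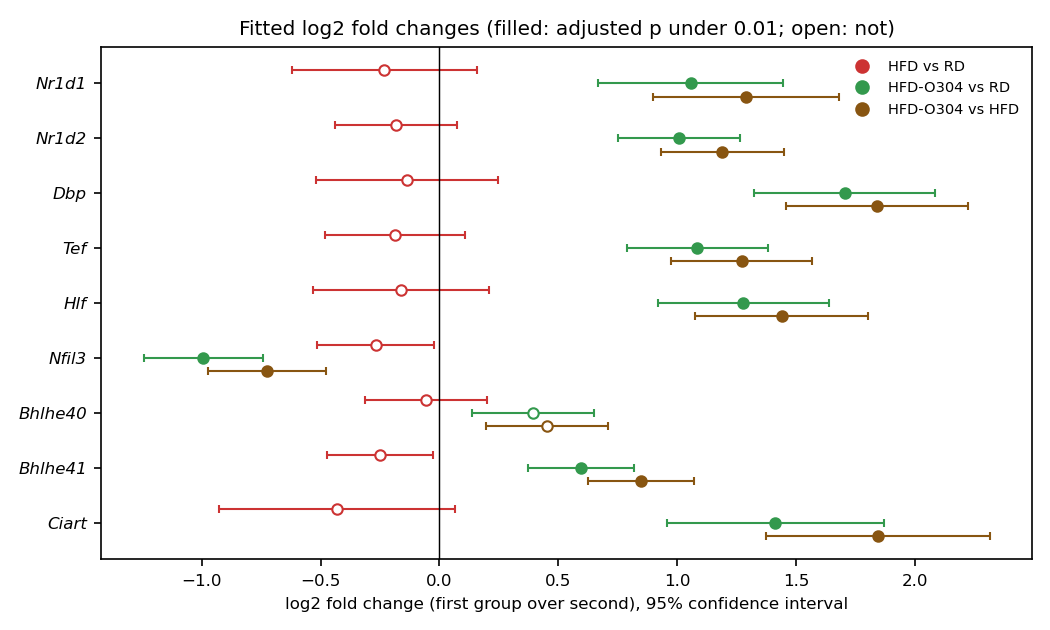
Fitted log2 fold change of each gene (horizontal axis, first group over second) with its 95% confidence interval, for the 3 comparisons. Filled points passed an adjusted p under 0.01; all HFD vs RD points are open and lie between -0.43 and -0.06, and Nfil3 alone lies left of 0 in the HFD-O304 comparisons.

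Per length, the order of the genes changed between groups. RPKM, the reads per kilobase of exon scaled by library size, averaged 14.1 ± 2.18 (SD, n = 7) for Nfil3 in RD islets, followed by Nr1d2 at 9.68 ± 1.29, Nr1d1 at 7.71 ± 2.21, Tef at 5.38 ± 0.92, Bhlhe41 at 4.82 ± 0.60, Dbp at 3.71 ± 0.67, Bhlhe40 at 2.26 ± 0.54, Hlf at 0.73 ± 0.22 and Ciart at 0.35 ± 0.047. The ranges of the neighbours from Nr1d2 to Dbp in that order overlapped, while Nfil3 stood above Nr1d2 without overlap. HFD islets kept the order, with Nfil3 at 11.7 ± 2.08 now overlapping Nr1d2 at 8.52 ± 1.85. In HFD-O304 islets Nr1d2 came first at 19.5 ± 3.43 RPKM, then Nr1d1 at 16.01 ± 2.73, Dbp at 12.1 ± 3.15 and Tef at 11.4 ± 1.53, each overlapping the next. Nfil3, at 7.04 ± 1.39, was then sixth, below Bhlhe41 at 7.29 ± 0.59 with overlapping ranges. Dbp moved from the sixth to the third place.

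The balance of factors that share a motif was described by a ratio of summed RPKM, with no test. Dbp, Tef and Hlf together over Nfil3 gave ratios of 0.49, 0.65 and 1.003 (lowest, median and highest) in RD, 0.42, 0.59 and 1.45 in HFD and 2.23, 3.34 and 5.53 in HFD-O304 islets. The repressor exceeded the summed activators in most RD and HFD samples, and the activators exceeded it in all HFD-O304 samples. The ratio also differed between library runs. In RD islets it was 0.49 to 0.65 in replicates 1 to 4 and 0.85 to 1.003 in replicates 5 to 7. For HFD islets the ranges were 0.42 to 0.59 and 0.95 to 1.45, while the runs overlapped in HFD-O304 islets. These were ratios of RNA per length and not of protein.

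**Figure D3:**
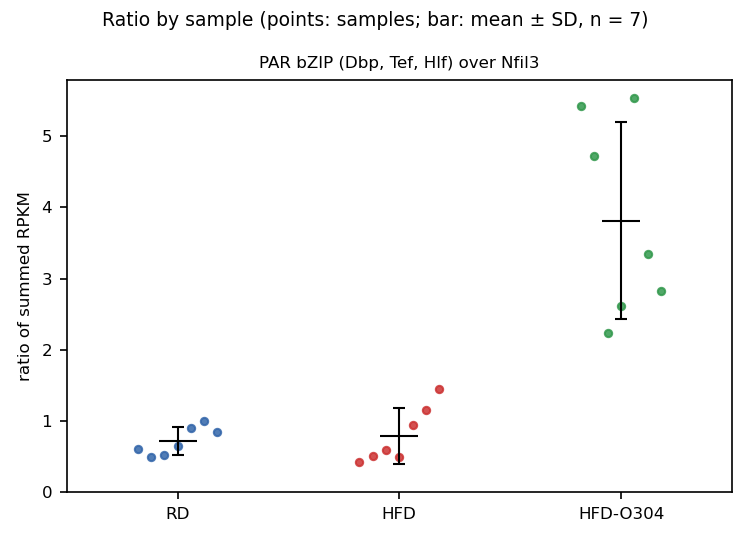
Ratio of summed RPKM per sample (vertical axis from 0) for PAR bZIP genes over Nfil3. Points are samples and bars the mean ± SD of 7; the ratio is 3.81 ± 1.38 in HFD-O304, 0.72 ± 0.20 in RD and 0.80 ± 0.39 in HFD islets.

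The genes on the other side of these loops were read from lists of clock genes. Of 4 activators (Clock, Arntl, Npas2 and Arntl2), 2 fell in HFD-O304 islets in both comparisons. Arntl had 1076 to 1393 normalized counts in RD, 890 to 1116 in HFD and 460 to 724 in HFD-O304 islets, and changed by -1.05 (standard error 0.089, adjusted p = 3.31e-08) against RD and by -0.73 (standard error 0.089, adjusted p = 1.05e-06) against HFD. Npas2 had 265 to 394, 187 to 263 and 49.1 to 139 and changed by -1.61 (standard error 0.17, adjusted p = 1.68e-06) against RD and by -1.15 against HFD (standard error 0.17; adjusted p = 2.08e-05). Neither gene's HFD-O304 values overlapped the other groups. Clock, which like both is listed among the REV-ERB targets, did not pass, at -0.041 and 0.054, nor did Arntl2, at -0.27 and -0.16.

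Of the 5 PER and CRY genes, Per3 rose in HFD-O304 islets by 1.43 against RD (standard error 0.19; adjusted p = 2.52e-05) and by 1.62 against HFD (standard error 0.19; adjusted p = 5.54e-07), sizes like those of Dbp and Ciart. Its normalized counts were 203 to 440 in RD, 150 to 401 in HFD and 587 to 1249 in HFD-O304 islets, again without overlap. Per2 (0.39, adjusted p = 0.00534) and Cry2 (0.34, adjusted p = 0.0058) rose against HFD, and had 0.40 and 0.24 against RD, where neither passed (adjusted p = 0.0214 and 0.156). Per1 and Cry1 passed in no comparison. In HFD vs RD islets none of the 4 activators or 5 PER and CRY genes passed.

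**Figure D4:**
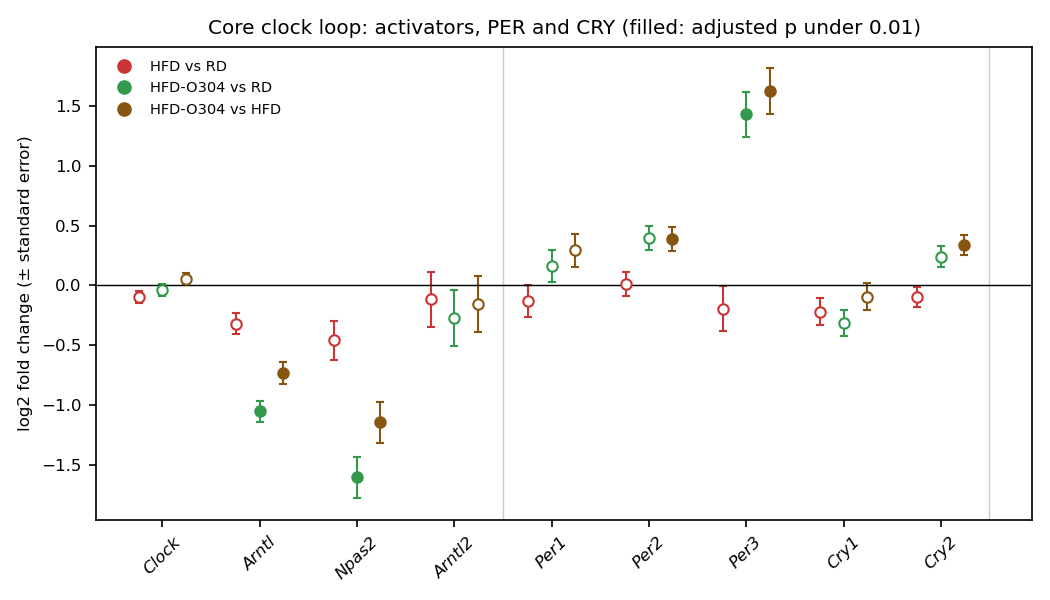
Log2 fold change (vertical axis) ± standard error of the clock activators and the PER and CRY genes in the 3 comparisons. Filled points passed an adjusted p under 0.01; Arntl and Npas2 lie below 0 and Per3 above it in both HFD-O304 comparisons, with Per2 and Cry2 filled only against HFD.

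Lists of genes downstream of these regulators moved in part. Of 7 tested genes known as REV-ERB targets (8 listed), 3 were lower and 0 higher in HFD-O304 vs RD islets, with a median log2 fold change of -0.42: Arntl, Npas2 and Nfil3. Against HFD 4 were lower, with Cdkn1a, a cell cycle inhibitor, added at -1.06 (adjusted p = 3.02e-06), a gene that was 0.64 higher in HFD vs RD islets (adjusted p = 0.00381). Arntl and Npas2 are also counted among the activators and Nfil3 among the 9 genes, so these counts are not separate. Of the 6 corepressor genes, 0 passed in HFD-O304 vs RD islets, Gps2 rose by 0.23 against HFD and Ncor1 fell by 0.24 in HFD vs RD islets.

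Of 5 tested PAR bZIP targets (7 listed), drawn from liver biology, 0 passed in HFD-O304 vs RD islets, where the log2 fold changes ranged from -0.68 to 0.20. Against HFD 1 rose and 2 fell. Pdxk, which makes the active form of vitamin B6, rose by 0.44 (adjusted p = 5.86e-04), while Alas1, of heme synthesis, fell by 0.41 (adjusted p = 3.73e-06) and the drug transporter gene Abcb1a fell by 1.16 (adjusted p = 5.91e-06). Alas1 was 0.32 higher in HFD vs RD islets (adjusted p = 5.44e-04). Of 8 other clock outputs, Fkbp5 rose by 0.40 against RD (adjusted p = 4.01e-04) and 0.48 against HFD (adjusted p = 5.42e-06), and Leo1 fell by 0.35 (adjusted p = 2.92e-04) and 0.43 (adjusted p = 1.85e-06). Nampt, of NAD synthesis, rose by 0.38 against HFD (adjusted p = 2.12e-04). Tspan4 was 0.59 higher in HFD vs RD islets (adjusted p = 0.00334) and fell by 0.46 in HFD-O304 vs HFD islets (adjusted p = 0.00903). Of the 6 genes for turnover of clock proteins, Btrc passed, at 0.26 higher in HFD-O304 vs HFD islets (adjusted p = 8.68e-04).

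Genes induced by handling or stress were read beside the 9. Of 10 immediate early genes, 0 passed in HFD-O304 vs RD islets and 1, Atf3, fell against HFD. Their summed level overlapped, at 64.6 to 166 CPM in RD, 57.7 to 114.4 in HFD and 60.9 to 98.1 in HFD-O304 islets. Of 7 glucocorticoid-induced genes, Fkbp5 was the only call in HFD-O304 vs RD islets, and against HFD the metallothionein gene Mt2 rose by 1.42 (adjusted p = 2.38e-06), Fkbp5 rose and Sgk1 fell by 0.41 (adjusted p = 0.00761). The 7 genes, however, summed to 213 to 269 CPM in HFD-O304, 172 to 195 in RD and 149 to 196 in HFD islets. Against RD, 5 of the 7 fitted higher, the most Mt2 at 0.70 and Fkbp5 at 0.40, and 2 lower. This list includes Per1 and shares Fkbp5 and Tsc22d3 with the clock outputs. The part of this summed level in the values of the 9 genes was not tested. The hypoxia list had 0 of 8 called in HFD-O304 vs RD islets. Ndrg1 was 0.32 higher in HFD-O304 vs HFD islets (adjusted p = 8.28e-04), and in HFD vs RD islets Ndrg1 fell by 0.28 and the glucose transporter gene Slc2a1 by 0.43 (adjusted p = 0.00809 and 0.00266).

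Markers of other islet cells differed against HFD. In HFD-O304 vs HFD islets all 6 genes of the alpha cell list passed, 4 higher (Gcg among them) and Ttr and Gc lower, and so did all 4 of the delta cell list, all higher. Summed alpha cell genes were 10765 to 19184 CPM in HFD and 23484 to 31862 CPM in HFD-O304 islets, without overlap, and delta cell genes 1306 to 2886 and 2334 to 4461 CPM. None of the markers that define these cells was at 0. In bulk islets, fewer cells of a type and less RNA per cell cannot be told apart. With the summed alpha cell genes as a covariate, 0 of the 9 genes and 52 of the 27229 genes tested passed against HFD, where 3230 had passed without it. Under this covariate the log2 fold changes were 1.78 for Dbp, 1.88 for Nr1d1 and 1.13 for Nr1d2, against 1.84, 1.29 and 1.19 without it. Their standard errors were 0.45, 0.45 and 0.31 in place of 0.19, 0.19 and 0.13. The log2 fold changes of Hlf and Nfil3 were 0.86 and -0.23, against 1.44 and -0.73 without it. Since the alpha cell sums of these groups do not overlap, alpha cell content and group cannot be told apart there. With delta cell genes as covariate, 3 of the 9 genes (Nr1d2 at 1.07, Dbp at 1.23 and Ciart at 1.65) and 267 of all genes passed.

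Against RD neither list was called (0 of 6 and 0 of 4), with alpha cell genes at 23346 to 29014 CPM and delta cell genes at 2365 to 3829 CPM in RD islets. In that comparison 8 of the 9 genes passed with either covariate, where 249 (alpha cell) and 263 (delta cell) of all genes did. With summed macrophage genes, 85.7 to 149 CPM in HFD-O304 and 74.8 to 105.3 in RD islets, 6 of the 9 and 236 of all genes passed, and Nr1d1 (0.98) and Bhlhe41 (0.54) no longer did. With endothelial genes, 307 to 494 and 411 to 487 CPM, 7 of the 9 and 190 of all genes passed, and Bhlhe41 (0.58) did not. Without a covariate, 356 of all genes had passed against RD, and these log2 fold changes were 1.06 for Nr1d1 and 0.60 for Bhlhe41. Acinar genes were called in neither comparison (0 of 10). With them as covariate 8 of the 9 genes passed against RD and 9 against HFD, where 333 and 3167 of all genes did. Against RD and against HFD, calls were 1 and 4 of 5 for duct genes (higher), 1 and 2 of 6 for endothelial genes (lower), 0 and 1 of 6 for macrophage genes, 0 and 3 of 6 for stromal genes and 0 and 1 of 4 for lymphocyte genes. What these lists contribute beyond the covariate fits was not tested.

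Some of the 9 genes differed between the library runs within a group. In HFD islets Nr1d2, Dbp, Tef and Hlf were higher, and Nfil3 lower, in all of replicates 5 to 7 than in all of replicates 1 to 4, so that 5 of the 9 did not overlap, against 13.2% of all genes. In RD islets this held for 2 of the 9, Tef (higher in replicates 5 to 7) and Nfil3 (lower), against 12% of all genes, and in HFD-O304 islets for 0, against 9.09%. Dbp in HFD islets had 194 to 370 normalized counts in replicates 1 to 4 and 453 to 551 in replicates 5 to 7. HFD replicate 7 was the highest HFD sample for 7 of the 9 genes and the lowest for Nfil3, and HFD replicate 1 was the lowest for 5.

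Within the runs, the HFD-O304 differences kept their direction for all 9 genes. In HFD-O304 vs RD islets Dbp had log2 fold changes of 1.63 in replicates 1 to 4 and 1.78 in replicates 5 to 7, Nfil3 -1.18 and -0.74, and Hlf 1.501 and 1.02. In HFD-O304 vs HFD islets the corresponding values were 2.12 and 1.59 for Dbp, -0.93 and -0.43 for Nfil3 and 1.84 and 1.03 for Hlf. Against HFD the differences of all 9 genes were smaller in size in replicates 5 to 7 than in replicates 1 to 4. The number passing against RD was 5 in replicates 1 to 4, where Nr1d1, Bhlhe41 and Ciart as well as Bhlhe40 missed, and 7 in replicates 5 to 7. Against HFD it was 8 in replicates 1 to 4 and 7 in replicates 5 to 7, where Nfil3 (edgeR adjusted p = 0.0114) as well as Bhlhe40 missed. The small HFD vs RD differences of Nr1d1 and Dbp changed direction, from -0.60 to 0.18 and from -0.49 to 0.19. A test of the interaction of group and library run called 0 of the 9 genes in any comparison, and 0 of all genes. At an unadjusted p under 0.05 there were 2, 1 and 4 of the 9 in HFD vs RD, HFD-O304 vs RD and HFD-O304 vs HFD islets, against 6.84, 5.57 and 4.83% of all genes.

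**Figure D5:**
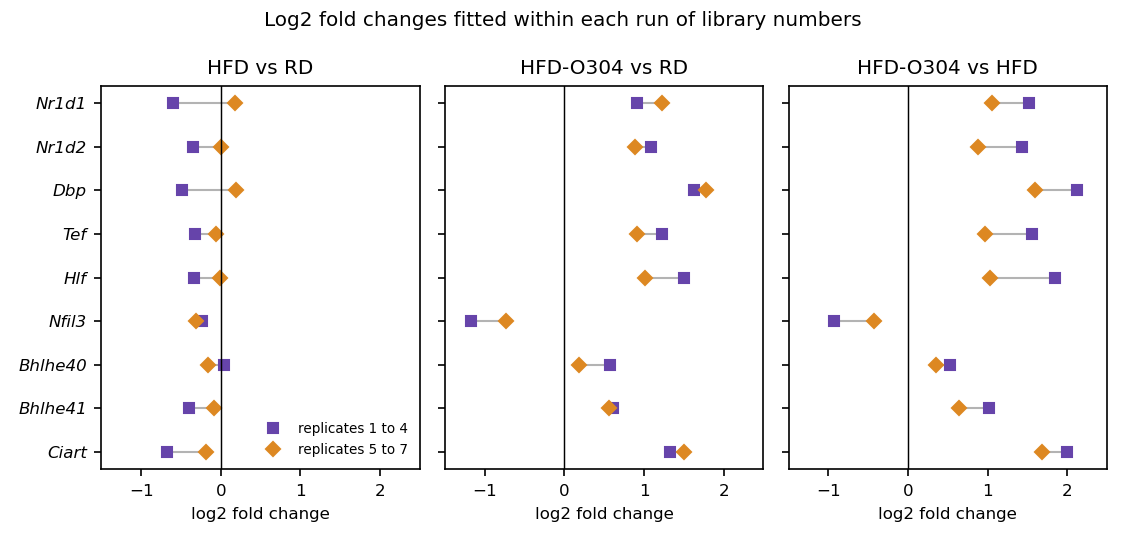
Log2 fold change (horizontal axis) of each gene fitted in replicates 1 to 4 alone (squares) and 5 to 7 alone (diamonds), for the 3 comparisons. In both HFD-O304 comparisons squares and diamonds lie on the same side of 0 for every gene, while in HFD vs RD islets those of Nr1d1, Nr1d2, Dbp and Bhlhe40 lie on different sides.

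Over all 21 samples, the genes most like a member in log2 normalized count were often other members. For Dbp these were Tef (Pearson r = 0.97), Nnat (0.95) and Hlf (0.94), for Tef Hlf (0.97), Dbp (0.97) and Nnat (0.96), and for Hlf Tef (0.97), Dcaf12l1 (0.95) and Dbp (0.94). Nr1d1 was most like Dbp (0.93), Nr1d2 (0.92) and L1cam (0.91), and Nr1d2 most like Hmgn3 (0.95), Tef (0.94) and Dbp (0.94). Nfil3 was most like Npas2 (0.89), Arntl (0.89) and Col12a1 (0.87). Bhlhe41 and Ciart had Tef (0.94 and 0.93), Nnat (0.94 and 0.93) and Camk2n1 (0.94 and 0.93), whereas Bhlhe40 had Sord (0.86) and Lix1l (0.85). These r values describe samples that share the group difference and carry no test.

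Within groups the relation of Dbp to the other 8 genes, Arntl, Npas2 and Per3 was seldom past the test. Of 33 relations over 7 samples each, 0 passed an adjusted p under 0.05 by Pearson's r and 2 by Spearman's rho, in exact two-sided permutation tests over all 5040 pairings. Those 2 were Tef and Per3 in HFD islets. There the library runs separate the Dbp values, and with 4 and 3 samples a run is too small for a test of its own, so no r is given for HFD islets. In HFD-O304 islets Dbp and Tef had r = 0.84 and rho = 0.86 (exact permutation p = 0.0155 and 0.0238, adjusted p = 0.073 and 0.13), and r = 0.68 without the 2 samples farthest from the median of Dbp. Dbp and Nfil3 there had r = -0.74 and rho = -0.82 (exact permutation p = 0.0728 and 0.0341, adjusted p = 0.20 and 0.14), with r = -0.69 without those 2 samples. In RD islets the same pair had r = -0.10, and r = -0.61 without the 2 samples farthest from the median of Dbp. The library runs separate the Nfil3 values of RD islets, so run and sample spread cannot be told apart in these r values. No relation of Dbp in RD islets had an unadjusted p under 0.05.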

How the data were processed

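RNA-seq counts of 21 islet samples were used. Per the labels and the methods, the authors aligned the 50-nt read pairs to GRCm38 with STAR (Ensembl 96; version not given in the sources used here) and deposited raw counts of read pairs per gene; pairs matching several places or genes are not counted. The strand column with 28.8 to 36.3 times the reads of the other was used, and 18.5 to 24.9% of pairs fell on no gene. Genes with at least 10 reads in all entered edgeR 4.0.16 (TMM, quasi-likelihood fit of the 3 groups, R 4.3.3), with Benjamini-Hochberg adjustment over 27229 genes and a threshold of 0.01; DESeq2 1.42.0 was an alternative. For normalized counts, each count was divided by its sample's DESeq2 size factor, and RPKM use TMM-scaled totals and merged exon length. Relations between genes used log2(normalized count + 1) and 5040 pairings. On simulated counts for HFD vs RD, 101 of 102 genes changed by 1 on the log2 scale and 55 of 98 changed by 0.5 were recovered among 27229. Other settings covered tool, scaling, filter, strand, samples, threshold, depth and each sample left out. Covariates of gene lists were chosen after seeing the data. The genes described and the lists were chosen with earlier results of these data known. All 9 genes, list genes passing in any comparison and the 3 most alike genes with a mean of at least 50 are named, except that some genes are not reported here.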

Additional observations from a re-analysis of the deposited data

Results flagged for a closer look

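Among 27 sets of 7 values (9 genes in 3 groups), 2 had a sample far from the others, where chance gives about 1 in 20. Hlf in RD replicate 6 had 288 normalized counts, and the next sample had 187. Without that sample Hlf rose by 1.43 on the log2 scale in HFD-O304 vs RD islets. Ciart in RD replicate 1 had 20.3 normalized counts, below the next sample at 27.4. Neither gene's calls changed when that sample was left out.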

How the results depend on the processing

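HFD vs RD gave 0 of the 9 genes in all settings. HFD-O304 vs RD gave 8 without any 1 sample, and 5 within replicates 1 to 4. HFD-O304 vs HFD gave 8 or 9 without any 1 sample, 0 with summed alpha cell genes as covariate and 3 with delta cell genes. These covariates were chosen after seeing the data, and 52 and 267 of all genes passed under them. The 9th gene was Bhlhe40, which passed against HFD without any 1 of 7 samples (RD replicates 2, 3, 4 and 6, HFD replicates 6 and 7, HFD-O304 replicate 2). No HFD-O304 difference turned direction. In HFD vs RD islets, where no gene passed, log2 fold changes turned positive for Nr1d1 (0.18), Nr1d2 (0.0018) and Dbp (0.19) in replicates 5 to 7, for Nr1d1 (0.017), Dbp (0.33), Tef (0.11), Hlf (0.26) and Bhlhe40 (0.040) with delta cell genes as covariate, for Hlf (0.32) with alpha cell genes, and for Bhlhe40 in replicates 1 to 4 (0.046), with immediate early genes (0.046) and without 1 sample, RD replicate 6 (range without any 1 sample -0.14 to 0.027). The causes were not tested.

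The labels do not say whether same-numbered samples are pairs. Their deviations correlated at -0.53 to 0.69, with means of 0.20, 0.29 and 0.14 in HFD vs RD, HFD-O304 vs RD and HFD-O304 vs HFD. The correlation was over 0.1 in 4, 6 and 5 of 7 pairs. In 3, 2 and 2 pairs a sample correlated best with its own number. These values do not decide whether the samples pair. With the replicate number as a block, 0, 9 and 9 of the 9 genes passed, Bhlhe40 being added at adjusted p = 0.0098 and 8.74e-04. Over all genes, 963, 356 and 3230 passed, and 1577, 543 and 3763 under the block. Over all settings these counts ran from 7 to 2148, 85 to 785 and 52 to 5150. With libraries thinned to the shallowest total, 0, 8 and 9 of the 9 genes passed.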
